A study of Mus musculus with 50 samples.

Results

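S100a8 and S100a9 are the 2 subunit genes of calprotectin, and they were 2 of the 1000 gene targets counted in this spatial experiment on mouse liver. Both were taken by name, with no threshold on a measured value. Calprotectin is a calcium-binding complex of the 2 proteins. Neutrophils hold it in large amounts in the cytosol, monocytes hold less, and once released it binds zinc and manganese away from microbes and acts on pattern-recognition receptors of neighbouring cells. In liver it is known as a marker of infiltrating neutrophils and of early monocyte-derived macrophages, whereas resting hepatocytes make little of it.

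CosMx imaging, which decodes single RNA molecules in place and assigns them to segmented cells, was applied to 5 µm paraffin sections of the median lobe. HIRA KO mice were HIRA fl/fl animals on C57BL/6, and Control mice were wildtype C57BL/6. All of them had been injected with AAV8-TBG-Cre when 6 months old and were collected 12 months later, at 18 months, so that the controls carried the virus and Cre too. The TBG promoter drives Cre in hepatocytes, so that the deletion was directed at these cells and at any cells derived from them. Hira is not on the panel, and the deletion could not be checked here. The 50 fields of view, 25 of each genotype, lay on 1 slide in 6 tissue areas, with 3 areas per genotype, numbered from the top of the slide. The labels name no mouse, and each area is taken as 1 mouse. All Control areas lay on the same side of the slide, so side and genotype cannot be told apart.

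After cells with fewer than 20 counts or very large outlines were left out, 49665 of 52132 cells were kept, and an area held 6801 to 10171 cells and 718991 to 1542205 gene counts, with a median of 88 to 147 counts per cell. The panel also carries 10 negative probes with no target in the tissue, which measured the background in the same cells. Levels are given as CPM, the counts of a target scaled to a common total of gene counts per area.

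The 2 genes are close neighbours on chromosome 3 of GRCm38.p6, S100a8 at 90669071 to 90670034 on the forward strand and S100a9 at 90692630 to 90695721 on the reverse strand, 22595 bases apart. Their proximal promoters are shown because the 2 transcripts were found in the same cells. Each window runs from 170 bases before to 30 bases after the RefSeq start, at chr3:90668901-90669100 for S100a8 and chr3:90695692-90695891 for S100a9, written on the strand of the gene. Capitals mark matches on either strand to TATAAA or to GAGGAA, a core that PU.1, a myeloid factor, can bind.
S100a8: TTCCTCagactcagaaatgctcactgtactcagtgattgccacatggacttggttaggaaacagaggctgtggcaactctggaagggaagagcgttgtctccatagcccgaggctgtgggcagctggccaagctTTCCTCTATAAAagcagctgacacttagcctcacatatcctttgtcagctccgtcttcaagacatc
S100a9: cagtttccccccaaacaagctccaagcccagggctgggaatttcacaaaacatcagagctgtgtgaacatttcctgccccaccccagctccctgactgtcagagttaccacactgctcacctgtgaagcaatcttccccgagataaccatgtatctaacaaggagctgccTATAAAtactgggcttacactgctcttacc
Both windows hold TATAAA, which starts at position -30 in S100a8 and at the first base of the annotated transcript in S100a9. It is present in 9.18% of the 32851 RefSeq promoter windows of this length. GAGGAA was found in the S100a8 window only, on the opposite strand at positions -170 and -36, against 19.2% of all windows. TTGCNNAA, a core bound by C/EBP factors, was in neither and is in 7.07% of windows. The pieces of TTCCTC and TATAAA in S100a8 adjoin without overlap.

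The first question was how far the pair stood above background and whether its level differed between the genotypes. S100a8 gave 5073 counts in kept cells and S100a9 5349, which ranked them 497 and 443 of 1000 targets. The highest negative probe gave 3828 counts and the mean negative probe 2904, so that the genes stood 1.32 and 1.40 times above the highest and 1.75 and 1.84 times above the mean. Over the whole tissue, probes without a target thus gave more than 50% of the count of either gene.

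S100a8 was at 823, 652 and 759 CPM in Control areas 1 to 3 and at 790, 698 and 743 CPM in HIRA KO areas 1 to 3. The Control mean was 745 ± 86.5 CPM (SD, n = 3) and the HIRA KO mean 744 ± 46.2 CPM (SD, n = 3), and the ranges overlapped. S100a9 was at 766, 778 and 872 CPM in Control and at 796, 710 and 806 CPM in HIRA KO, with means of 806 ± 57.9 and 771 ± 52.96 CPM (SD, n = 3 each), again with overlap. A two-sided exact permutation test over areas gave p = 1 for S100a8 and p = 0.6 for S100a9, where 3 against 3 areas cannot go below 0.1. The mean negative probe lay between 364 and 453 CPM and did not separate the groups either (exact permutation p = 0.9).

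**Figure D1:**
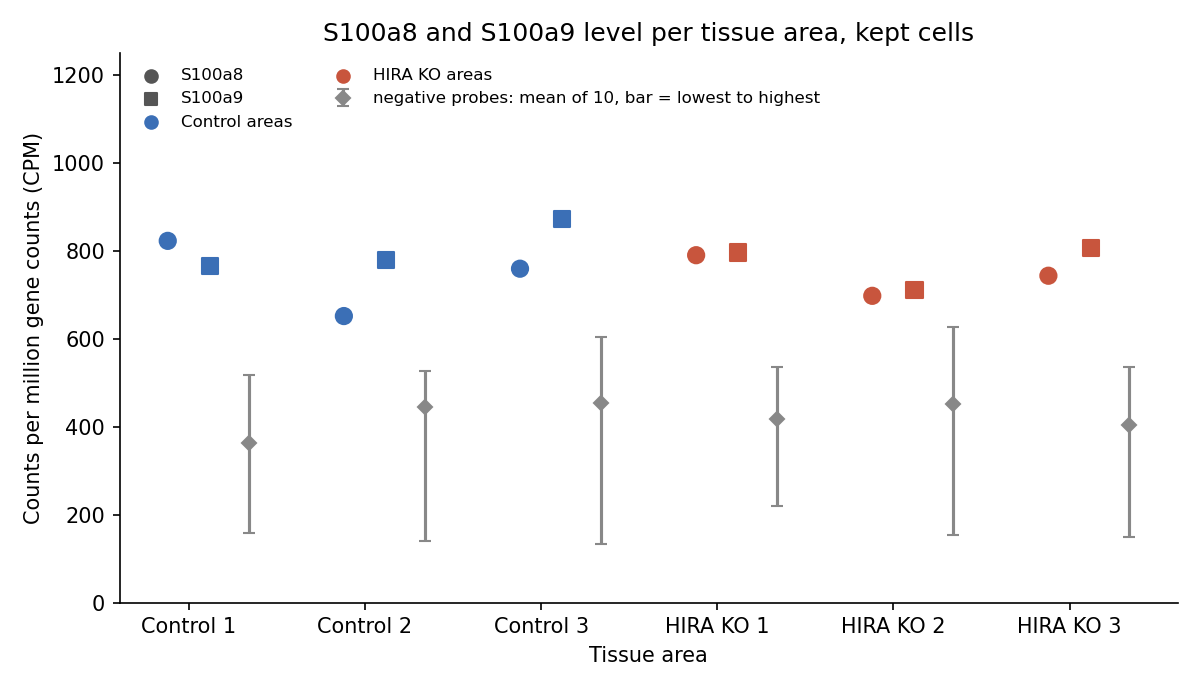
S100a8 (circles) and S100a9 (squares) in CPM in each of the 6 tissue areas (blue, Control; red, HIRA KO), with the mean of the 10 negative probes (grey diamonds, bars from the lowest to the highest probe). Both genes lie above the highest negative probe in every area, and the 2 genotypes overlap.

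In the edgeR quasi-likelihood fit over all targets with TMM scaling, the HIRA KO to Control log2 difference was 0.11 for S100a8 (SE 0.12, adjusted p = 0.85) and 0.05 for S100a9 (SE 0.12, adjusted p = 0.92). Neither of the 2 passed, beside 0.200% of the 998 targets tested. The 95% intervals on 4 residual degrees of freedom were -0.22 to 0.45 and -0.27 to 0.38 on the log2 scale. Scaling by library size alone moved the median of all targets by over 0.1, from -0.01 to -0.12, and turned the sign of both genes, to -0.0009 and -0.06, and no direction is given for either.

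The ratio of the 2 transcripts was equally steady. S100a8 over S100a9 counts came to 1.07, 0.837 and 0.871 in Control and 0.992, 0.983 and 0.922 in HIRA KO (exact permutation p = 0.6 on the log2 ratio). Over the 50 fields of view, the levels of the 2 genes on the log2(CPM + 1) scale went together only loosely, with a Spearman rho of 0.374 and a Pearson r of 0.441, or 0.374 and 0.444 without the 2 fields farthest from the S100a8 median. Fields of an area share tissue and depth, and this is a description. The 5 targets most like the pair across the fields were Itgb8, an integrin chain (mean rho 0.399), Scgb3a1, a secretoglobin (0.392), Itga5, the fibronectin receptor chain (0.378), Bmp5, a growth factor (0.371), and Hgf, hepatocyte growth factor (0.370). None of these was close, and no gene of the neutrophil list was among the 5. Itgb8, Scgb3a1 and Itga5 had a mean rho above the 0.374 between S100a8 and S100a9 themselves.

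The pair stood apart from background at higher counts in single cells. Of the kept cells, 7516 or 15.1% held at least 1 count of either gene, and 80.1% of those held exactly 1. Pairs of negative probes reached 1 count in 3151 to 6227 cells (median 5175), so most such cells cannot be told from background. At a summed count of 5 or more there were 119 cells, where the 45 possible pairs of negative probes gave at most 4. No cell held more than 6 counts of any negative pair, while the pair of calprotectin genes reached 66. Cells with 10 or more summed counts are called strongly positive below. There were 49 of them, 0.0987% of kept cells, and they held 8.55% of all S100a8 and S100a9 counts. Just inside that threshold lay 12 cells with 10 or 11 counts, and just outside it 24 cells with 8 or 9.

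**Figure D2:**
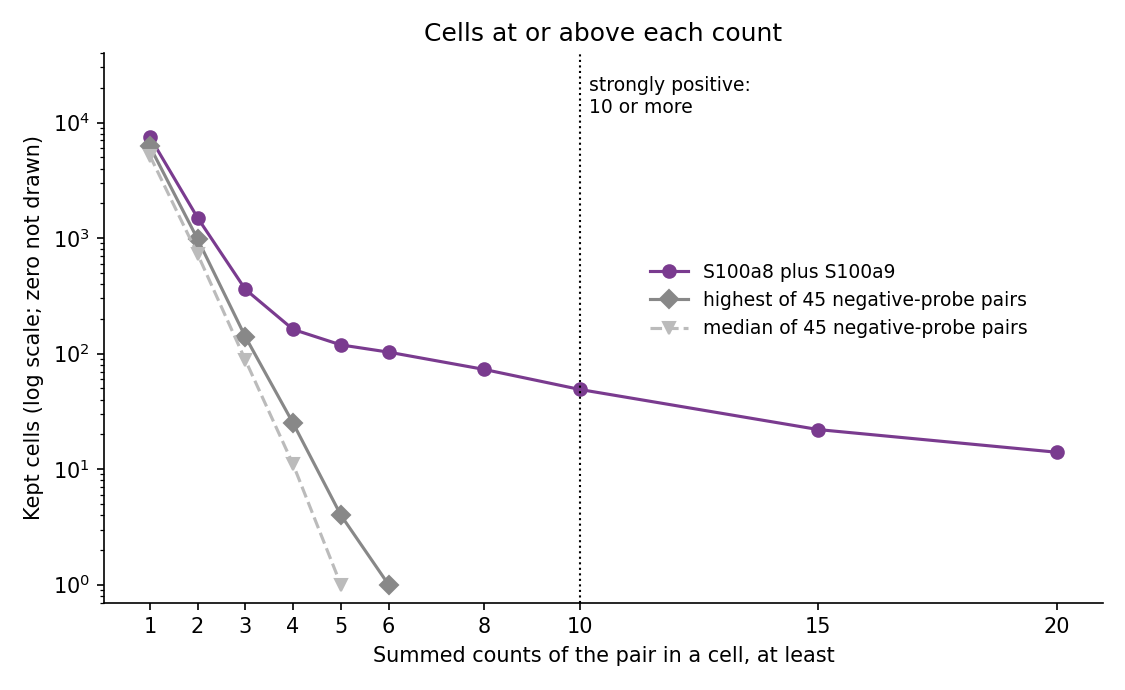
Number of kept cells (log axis) that reach each summed count of S100a8 and S100a9 (purple), beside the highest (grey diamonds) and the median (light triangles) of the 45 pairs of negative probes. At 10 or more counts 49 cells remain for the calprotectin pair and 0 for any negative pair.

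The 2 transcripts occurred in the same strongly positive cells. All 49 held both, although the threshold did not ask for it, with 2 to 33 counts of S100a8 (median 7) and 3 to 33 of S100a9 (median 7). S100a8 was the higher in 25 cells, S100a9 in 20, and they were equal in 4. The highest cell, in HIRA KO area 2, held 33 of each among 283 gene counts, and its field of view also held the next, with 33 and 27. The third, with 22 and 20, lay in Control area 2, and all of these were hepatocyte-like in the clustering described below. In a strongly positive cell the pair made up 2.37% to 32.1% of all counts, with a median of 11.3%.

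**Figure D3:**
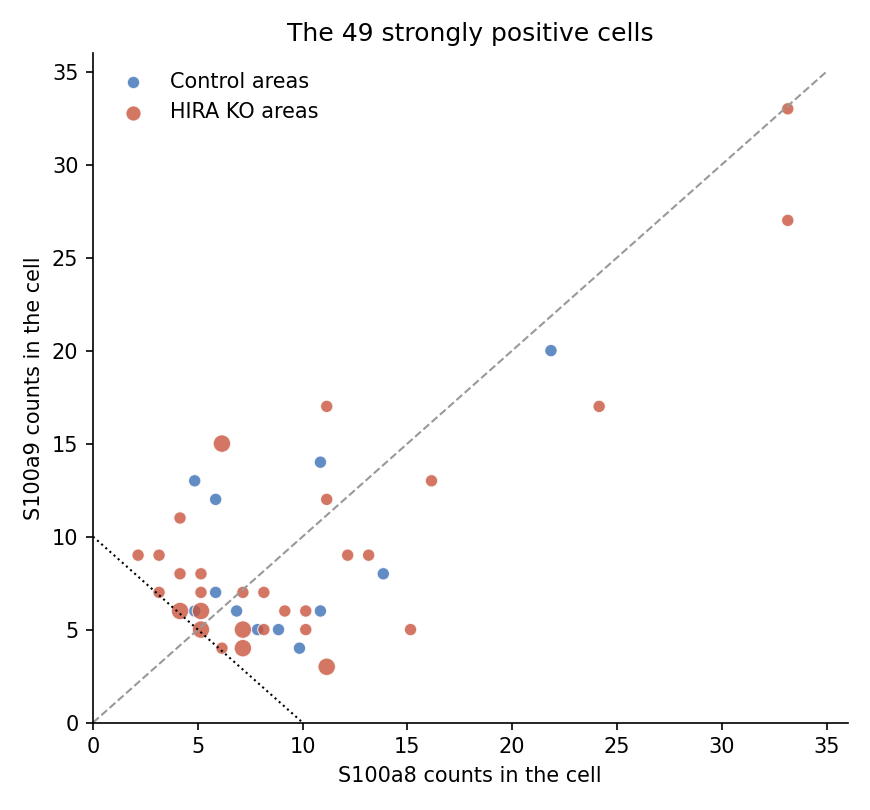
S100a8 against S100a9 counts in each of the 49 strongly positive cells (blue, Control areas; red, HIRA KO areas; larger points stand for 2 cells; dashed line, equal counts; dotted line, the threshold of 10 summed counts). The cells lie around the line of equal counts, and the 2 highest, at 66 and 60 summed counts, are in HIRA KO area 2.

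Cells with few counts showed far less of this. Among cells with no S100a8, 7.74% held S100a9, and the share was 12.2% at 1 count of S100a8, 16.9% at 2, 55.4% at 3 to 4, 92.1% at 5 to 9 and 100% at 10 or more. Together 591 cells held both genes, 1.79 times the 331 that independent detection would give, a log2 odds ratio of 1.06. Negative-probe pairs, which have no target in the tissue but can share the depth and other background of a cell, gave log2 odds ratios of 0.45 to 0.95 (median 0.75). With the strongly positive cells left out the pair was at 0.93, inside that range. Over all kept cells, strongly positive ones included, the log2 odds ratio of the pair within 10 bins of depth was 0.55. The negative pairs were not binned by depth, so that value has no background beside it.

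Co-detection did not separate the genotypes. The log2 odds ratio was 0.69, 0.93 and 1.40 in Control and 0.99, 0.95 and 1.31 in HIRA KO areas (exact permutation p = 0.8). With each cell thinned to 50 counts, which left out 840 to 1803 shallower cells per area, the means were 1.26 ± 0.59 and 1.76 ± 0.47 (SD, n = 3 each, exact permutation p = 0.3). The share of cells with S100a8 was 7.41% ± 1.34 in Control and 8.59% ± 0.956 in HIRA KO unthinned, and 3.10% and 3.20% thinned.

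The mean share of strongly positive cells was larger in HIRA KO, but the areas of the genotypes overlapped. Control areas held 3, 2 and 7 such cells and HIRA KO areas 12, 7 and 18, or 12 and 37 in all. As a share of kept cells this was 0.0369%, 0.0294% and 0.0999% in Control and 0.118%, 0.0692% and 0.242% in HIRA KO, and Control area 3 lay above HIRA KO area 2. Each of 3 rows of the slide held 1 area per genotype, and within its row the HIRA KO area was higher 3 of 3 times, by 0.0811, 0.0398 and 0.142 percentage points (exact sign-flip permutation p = 0.25, the smallest 3 rows can give; the pairing by row was chosen after seeing the data). The means were 0.0554% ± 0.0387 and 0.143% ± 0.0891 (SD, n = 3 each), with an exact permutation p = 0.2. Exact 95% binomial intervals, which cover counting error only, ran from 0.0036% to 0.106% for Control area 2, the lowest, and from 0.143% to 0.382% for HIRA KO area 3, the highest. Those of Control area 3 (0.0402% to 0.206%), HIRA KO area 1 (0.0610% to 0.206%) and HIRA KO area 2 (0.0278% to 0.143%) overlapped widely. In thinned cells, with 5 counts as the threshold, the means were 0.0939% and 0.137% (exact permutation p = 0.5).

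The strongly positive cells held 4.25%, 3.48% and 9.04% of the counts of the pair in Control and 8.73%, 9.90% and 13.4% in HIRA KO (exact permutation p = 0.2), which was higher in 3 of 3 rows of the slide (exact sign-flip p = 0.25). Without these cells S100a9 was at 738, 754 and 798 CPM in Control and at 721, 647 and 709 CPM in HIRA KO. Leaving the cells out lowered the S100a9 mean from 806 to 763 CPM in Control and from 771 to 692 CPM in HIRA KO. The remaining values did not overlap, whereas with all kept cells S100a9 did (exact permutation p = 0.6). How many other targets also did not overlap was not counted. The 12 Control and 37 HIRA KO cells left out had been chosen by their S100a8 and S100a9 counts. The part of that choice was not tested, so the remaining values do not test the genotype and no conclusion is drawn from them. The edgeR fit without the strongly positive cells gave S100a9 a log2 difference of -0.02 (adjusted p = 0.96). S100a8 without them overlapped, at means of 700 ± 79.5 and 663 ± 58.0 CPM.

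Where the transcripts lay was asked with cell classes from a clustering that did not use the 2 genes. None of its 20 clusters met the marker rule for neutrophils. The 49 strongly positive cells were spread over classes, with 11 in unnamed clusters, 9 hepatocyte-like, 8 Kupffer-like, 7 T/NK-like, 5 monocyte/dendritic-like, 4 stellate-like, 3 endothelial-like, 1 cholangiocyte-like, 1 myofibroblast-like and 0 of 670 B-lineage-like cells, which allows a share of up to 0.448%. T/NK-like cells had the highest share, 0.442%, followed among the larger classes by Kupffer-like at 0.208% and monocyte/dendritic-like at 0.163%, against 0.0503% of hepatocyte-like cells.

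The summed level of the pair was 2419 ± 1019 CPM in T/NK-like cells (SD over 6 areas) and 2107 ± 569 in unnamed cells. It was 1540 ± 295 in Kupffer-like, 1456 ± 44.7 in hepatocyte-like and 1163 ± 209 in cholangiocyte-like cells. In myofibroblast-like cells it ran from 240 to 8632 CPM, where the smallest area held 25 such cells and the class a single strongly positive one. Without strongly positive cells the unnamed level was the highest, at 1816 ± 311 CPM. The T/NK-like level was then 1534 ± 198 and the hepatocyte-like 1394 ± 74.7 CPM, within 1 SD of each other. The level of 2 average negative probes was 699 CPM in T/NK-like and 951 CPM in hepatocyte-like cells. Relative to that background the levels were farther apart, at 2.22 ± 0.339 times in T/NK-like and 1.47 ± 0.136 times in hepatocyte-like cells (SD over 6 areas). That difference was not tested. The ratio was 3.30 ± 1.85 in B-lineage-like cells, with as few as 7 cells in an area. It was 2.11 ± 0.761 in monocyte/dendritic-like, 1.98 ± 0.312 in Kupffer-like and 1.795 ± 0.257 in unnamed cells. The remaining classes ran from 1.10 in myofibroblast-like to 1.77 in cholangiocyte-like cells. The negative probes were also uneven between classes, from 401 in B-lineage-like to 1012 CPM in unnamed cells.

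The antibody stains taken on the same section did not enter the choice of cells. The median CD45 intensity of strongly positive cells, the surface mark of leukocytes, was 3839, 4049 and 5843 in Control areas and 6621, 4839 and 7047 in HIRA KO areas. Other cells were at 767, 654 and 793 and at 1061, 863 and 1166. Strongly positive cells were higher in 6 of 6 areas, 6.03-fold on average, and 48 of the 49 lay above the median of other cells of their area (exact sign-flip permutation p = 0.03125, the smallest 6 areas can give; 0.109 after Benjamini-Hochberg adjustment over 7 measures). This held in cells of other classes too, as 8 of the 9 hepatocyte-like strongly positive cells lay above their area median of CD45, with a class median of 2899 against 721 in other hepatocyte-like cells. DAPI, the nuclear stain, was 1.35-fold higher in 6 of 6 areas (exact p = 0.03125, adjusted 0.109). CD3, pan-cytokeratin and cell area were higher in 1 of 6 areas each, with adjusted exact p values of 1, 0.613 and 0.492.

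The other genes of the strongly positive cells were compared with those of all other cells of the same area, with S100a8 and S100a9 left out of counts and totals. The depth was small, since the strongly positive cells of an area held 172, 159, 860, 1661, 1655 and 2946 other counts in Control 1 to 3 and HIRA KO 1 to 3. S100a6, a calcium-binding member of the same family, was higher at 5769 against 916 CPM in the pooled cells, with 5, 0, 8, 9, 6 and 15 counts per area. It was detected in 25 of the 49 cells and in 10.5% of other cells. The edgeR fit with TMM scaling gave it a log2 difference of 1.99 (SE 0.48, adjusted p = 0.038), the single call among 996 targets, 0.10%. That call was lost, with adjusted p of up to 0.27, at a threshold of 20 counts and when any area other than Control area 2 was left out.

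TMM scaling was unstable on sums this small, with factors from 0.608 to 4.64, and it set the median target at a log2 difference of -0.74. Scaling by library size alone set it at -0.10 and called 15 targets, 1.51%, of which 11 were higher, 1.10%, and 4 lower, 0.402%. Adjusted p values in the next sentences are from that edgeR fit. S100a6 led again, at a log2 difference of 2.81 (SE 0.37, adjusted p = 7.23e-11), and with this scaling it passed with each area left out in turn. Of all the other genes named next none passed with TMM.

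The neutrophil list of 36 genes had 24 on the panel. Of these 6 were called higher and 0 lower with library-size scaling, with a list median of 0.87 against -0.10 over all targets, and 0 with TMM, at a list median of 0.18 against -0.74. Lcn2, the iron-binding protein of secondary granules, was higher by 1.89 (SE 0.44, adjusted p = 0.0041), with 24 counts in 15 cells. These were 0, 0 and 2 counts in Control areas and 7, 11 and 4 in HIRA KO areas, higher in 4 of 6 areas. Il1b, an inflammatory cytokine, was higher by 1.79 (SE 0.49, adjusted p = 0.0195), with 18 counts in 14 cells. These were 0, 1 and 4 counts in Control areas and 3, 1 and 9 in HIRA KO areas, also higher in 4 of 6 areas. Csf3r, the receptor for granulocyte colony-stimulating factor, was higher by 1.96 (SE 0.53), with 11 counts in 10 cells, of which 8 counts were in HIRA KO area 3, and its total over all cells was below that of the highest negative probe. Srgn, the proteoglycan core of granules, rose by 1.80 (SE 0.37, adjusted p = 0.000445), with 53 counts in 22 cells, although 16 of these were in 1 cell. Of the defining surface and granule genes, Itgam at -0.04 (SE 0.65) and Camp at 1.68 (SE 0.51) did not pass, at adjusted p of 0.999 and 0.063.

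The primary granule enzymes Mpo, Elane and Ctsg came almost entirely from a single cell. They were called at log2 differences of 2.11, 2.01 and 1.92, but 62 of their 84 counts lay in 1 T/NK-like cell of HIRA KO area 2, which held 23 Mpo, 27 Elane and 12 Ctsg beside 24 S100a8 and 17 S100a9 among 595 counts. Without that cell their differences were 0.79, 0.54 and 0.42, none past the threshold, with adjusted p of 0.716, 0.81 and 0.908. S100a6, Lcn2, Il1b, Csf3r, Slpi, Srgn, Alox5ap and Cotl1 stayed past the threshold without it, whereas Ttr and Fasn did not (adjusted p = 0.178 and 0.063). Most of these calls also depended on single areas. Il1b and Slpi lost theirs without any of Control areas 1 to 3 or HIRA KO area 3 (adjusted p up to 0.287 and 0.357), and so did Csf3r, which was at 0.75 (adjusted p = 0.85) in the lowest of these. Cotl1 lost its call without areas 1 or 3 of either genotype, Alox5ap without Control area 1 or HIRA KO area 2 or 3, Lcn2 without HIRA KO area 1 or 2 and Srgn without HIRA KO area 2, while the log2 differences of these genes stayed at 1.25 or more. The calls of Mpo, Elane and Ctsg were lost without HIRA KO area 2.

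**Figure D4:**
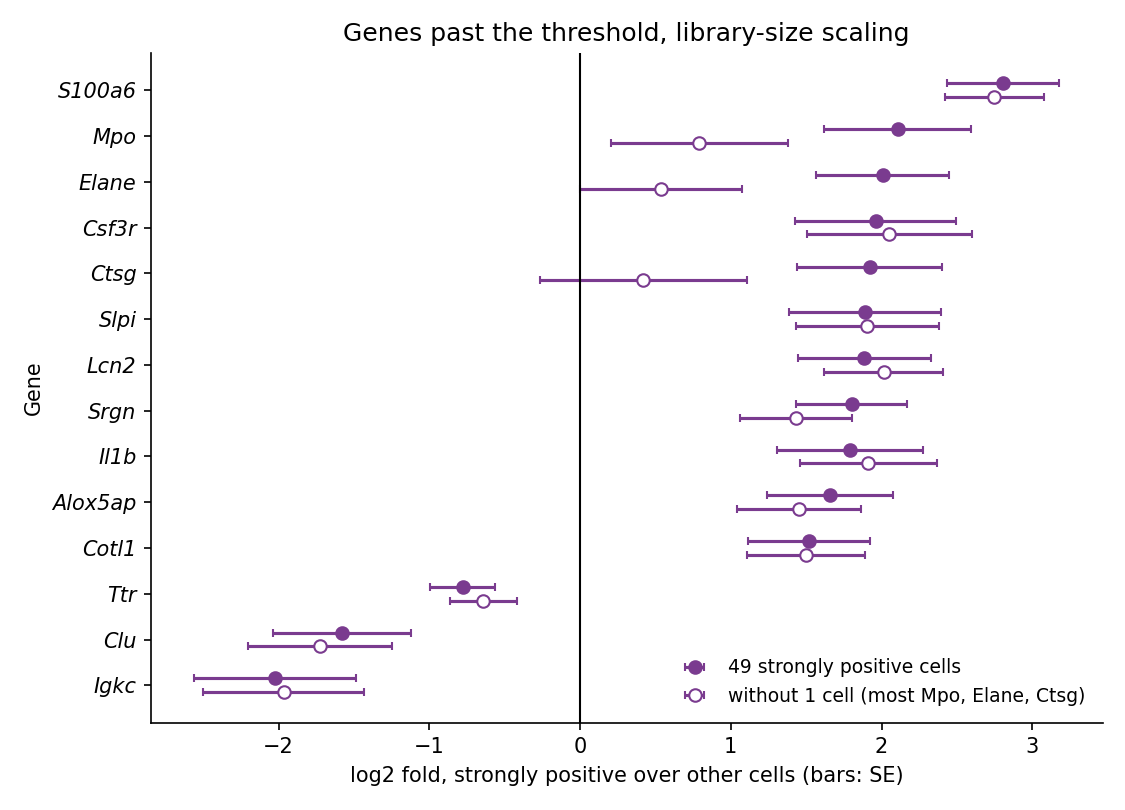
log2 difference between strongly positive and other cells of the same area, with SE, for the targets called with library-size scaling that have counts in strongly positive cells (filled, all 49 cells; open, without the cell richest in Mpo, Elane and Ctsg). Mpo, Elane and Ctsg drop from 2.11, 2.01 and 1.92 to 0.79, 0.54 and 0.42, while S100a6 stays at 2.75.

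Other called genes are known from myeloid and other cells. Slpi, a protease inhibitor that protects tissue from neutrophil elastase, was higher by 1.89 (SE 0.50), Alox5ap, which activates leukotriene synthesis, by 1.66 (SE 0.42), and Cotl1, an actin-binding protein, by 1.52 (SE 0.41). Lower were Ttr, a hepatocyte transport protein (-0.78, SE 0.22), Clu, a secreted chaperone (-1.58, SE 0.46), and Igkc, the immunoglobulin light chain (-2.02, SE 0.54). Their calls, and that of Fasn, were lost without 4, 5, 3 and 6 of the 6 areas left out in turn, respectively. Fasn had 0 counts in the 49 cells. With the threshold at 5 counts, which took 119 cells, the same scaling called 16 targets, 1.61%, of which 12 were higher, 1.20%. S100a6, Il1b, Lcn2, Slpi, Srgn, Alox5ap and Cotl1 were again higher. Mpo and Elane were too, with the cell richest in them still included. Newly called higher were Tyrobp, a signalling adaptor of myeloid and NK cells, at 1.10 (SE 0.30), Ctsd and Kir3dl1/2. Csf3r, Ctsg, Igkc and Fasn lost their calls in this edgeR fit (adjusted p = 0.206, 0.077, 0.607 and 0.694).

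Genes around calprotectin gave little. None of the 6 monocyte genes on the panel was called in strongly positive cells, and Ccr2, the receptor of inflammatory monocytes, at 1.12 (SE 0.61), and Plac8 at 1.03 (SE 0.49) were the highest. Of 5 calprotectin receptors and related surface molecules none passed, with Tlr4, the main receptor, at 0.20 (SE 0.66) and Cd33 at 1.598 (SE 0.50, adjusted p = 0.081). Of 11 attractants or regulators of neutrophils none passed there. By genotype, no member of these lists or of the S100 family passed in the edgeR fit (adjusted p of 0.57 or more). Cxcl1 at 0.54 (SE 0.17) and Cxcr4 at 0.33 (SE 0.10) had unadjusted p values of 0.0080 and 0.0074 in that edgeR fit. Unadjusted p values under 0.05 were found there for 73 of the 998 targets. Cxcr4, with 3147 counts in kept cells, was below the highest negative probe at 3828. Of the 7 S100 genes of the panel the other 5 were S100a2, S100a4, S100a6, S100a10 and S100b, and only S100a6 was called in strongly positive cells.

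Distance to bile ducts was measured from each cell centre to the nearest of the cholangiocyte-like cells of its area, of which there were 135 to 847. A kept cell had a median diameter of 122 pixels. The 48 strongly positive cells that were not cholangiocyte-like themselves had median distances of 570, 982 and 882 pixels in Control and 307, 270 and 864 in HIRA KO, and other cells of 553, 958 and 699 and 288, 259 and 753. Strongly positive cells were thus farther from ducts in 6 of 6 areas, by 11.2 to 183 pixels and by 60.9 ± 70.4 on average (SD, n = 6), with an exact sign-flip permutation p = 0.03125, the smallest possible. In each area their median lay between the 51.2th and 61.9th percentile of the other cells. The call was not stable: with cells of at least 50 counts the mean difference was -20.5 pixels (exact p = 0.656), and at thresholds of 5 or 20 counts or at 10% of a cell's counts, or with duct cells taken by marker counts, it did not pass. The difference did not separate the genotypes (exact permutation p = 0.6). With duct cells taken by marker counts the genotype difference was -5774 pixels (exact permutation p = 0.1, the smallest possible). In that setting the Control area 1 median was 15930 pixels, against 1397 in other cells.

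**Figure D5:**
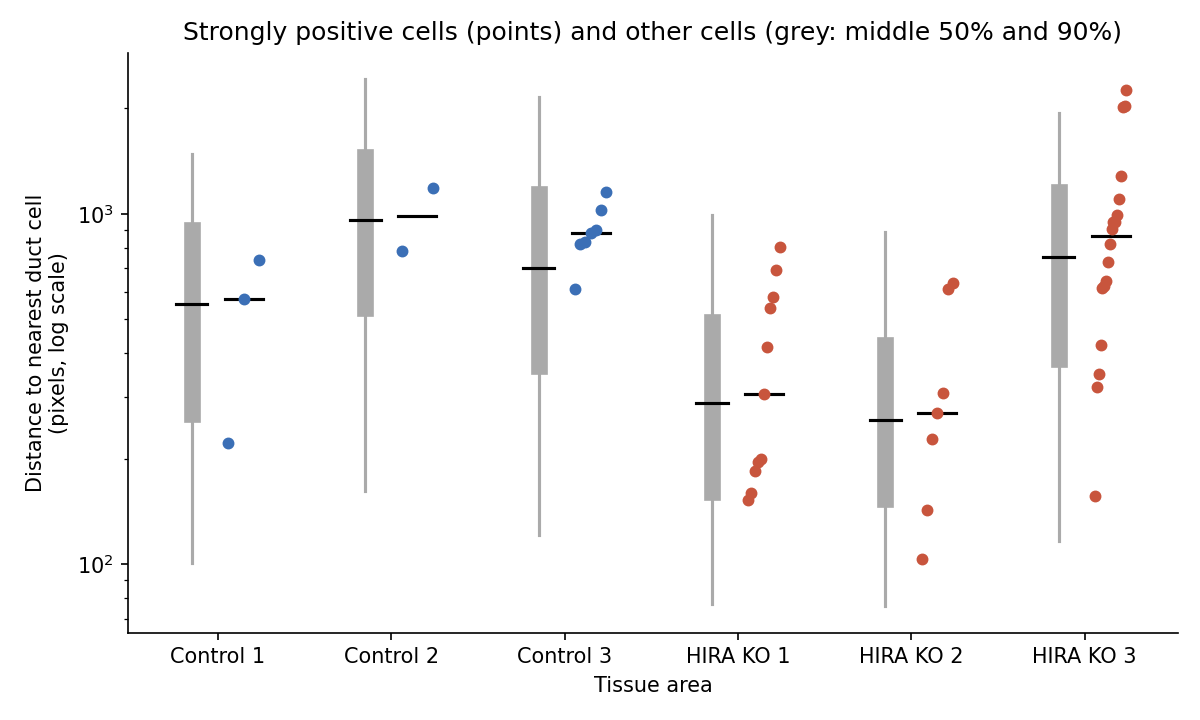
Distance in pixels (log axis) from each strongly positive cell to the nearest cholangiocyte-like cell (points; blue, Control; red, HIRA KO), beside the other cells of each area (grey, middle 50% and 90%); black bars are medians. The medians of strongly positive cells exceed those of other cells by 11.2 to 183 pixels and lie well within their spread.

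Among the 20 nearest cells of each duct cell, strongly positive cells made up 0.0189%, 0% and 0% in Control and 0.0512%, 0.0708% and 0.0823% in HIRA KO. The groups did not overlap, at means of 0.0063% and 0.0681% (exact permutation p = 0.1, the smallest possible). Divided by the share among all cells of the area, the values were 0.512, 0 and 0 in Control and 0.434, 1.02 and 0.340 in HIRA KO, so that the share near ducts was below that of the whole area in 5 of 6 areas and 1.02 times it in HIRA KO area 2. The values rest on 1 distinct cell in Control and 4, 4 and 3 in HIRA KO, and with duct cells taken by marker counts the exact p was 1. Within 100 pixels of a duct cell there was no strongly positive cell among 2890 kept cells that were not cholangiocyte-like. This allows a share of up to 0.104%, just above the 0.0987% of all kept cells, so these few cells cannot tell depletion from an equal share. The pair without strongly positive cells was at 1272 ± 298 CPM there, at 1358 to 1458 CPM from 100 to 1600 pixels and at 1225 ± 451 CPM beyond. The mean levels farther out thus lay within 1 SD of that near ducts, and no lower level near ducts is read from them. The level of 2 average negative probes was 717 CPM within 100 pixels and 847 to 879 CPM farther out, and its part in these levels was not tested.

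Cells near a strongly positive cell held more of the pair themselves. Over the 20 nearest cells that were not strongly positive, the summed level was 3812, 2973 and 2137 CPM in Control and 2726, 1560 and 2341 in HIRA KO, against 1265 to 1505 CPM in the remaining cells. It was higher in 6 of 6 areas, by 1203 ± 711 CPM (exact sign-flip permutation p = 0.03125). In the 5 nearest it was higher in 5 of 6 areas, by 3901 ± 3708 CPM. How much of this is transcripts assigned to the cell next to their own was not tested. Kupffer-like cells made up 11.5% of the 20 nearest against 7.93% of all cells, in 6 of 6 areas, and cholangiocyte-like 3.39% against 5.37%, higher in 1. Myofibroblast-like cells made up 0.119% against 0.691%, higher in 0 of 6 areas. No class passed after adjustment over 10 classes, with the lowest adjusted exact p at 0.156. A single class at the smallest possible exact sign-flip p of 0.03125 could not have passed that adjustment, so the adjusted values decide nothing about 1 class.

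The position of single transcripts was read from the table of decoded molecules. Outside cells lay 7.80% of S100a8 and 6.88% of S100a9 transcripts, beside 6.88% of all other targets and 9.88% of the negative probes. Within cells that were not strongly positive, 41.5% of S100a8 and 44.1% of S100a9 transcripts fell over the nucleus, between the negative probes at 28.9% and the other targets at 47.7%. In strongly positive cells the nuclear share was 66.2% and 70.1%, against 56.4% of other targets in the same cells. The share outside cells was 8.31% ± 0.661 in Control and 7.47% ± 0.529 in HIRA KO for S100a8 (exact permutation p = 0.2) and 7.08% ± 2.50 and 6.84% ± 0.342 for S100a9 (exact permutation p = 1).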

How the data were processed

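RNA was counted by CosMx with the 1000-target mouse panel. Transcript counts per target and cell were deposited without normalization, and cells had been segmented on the platform by the authors' service provider. Stain intensities were deposited as the mean brightness per cell, and positions and areas in pixels, of which the physical size is not given in the sources used here. Cell outlines were not used. There were 0 unmapped columns of values.

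Cells with fewer than 20 gene counts or over 5 times the geometric mean area were left out. Each run of consecutive fields of view of 1 genotype was an area and the unit of replication. Where areas are not separate mice, p-values measure only the spread between areas. Clusters were made without S100a8 and S100a9 (Leiden, leidenalg 0.10.2, resolution 1.6, 30 components of Pearson residuals) and named by at least 3 raised markers. No doublet caller was run. Area values were compared by two-sided exact permutation (3 against 3, smallest p 0.1) or exact sign flip (6 areas, smallest p 0.03125). Counts summed per area were tested across all targets with edgeR 4.0.16 quasi-likelihood and Benjamini-Hochberg adjustment, with TMM scaling, and for strongly positive cells with the area as a block. Library-size scaling, DESeq2 1.42.0, limma-voom 3.58.1, other thresholds and filters, the slide row as a block and leaving out each area were alternatives. The fits were tested on simulated counts, on which the comparison of strongly positive cells made more false calls than the nominal rate under both scalings, and more with TMM than with library size. Genes were to be named if called and changed the same way in 6 of 6 areas, which none met in the TMM fit, so the called genes and members of the lists are named after their values were seen. The members and lists were chosen with earlier results of these data known. Zero counts were given an upper limit of 3 counts, and intervals and limits cover counting error only. Python 3.11.15, scipy 1.17.1 and R 4.3.3 were used.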

Additional observations from a re-analysis of the deposited data

How the results depend on the processing

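Leaving out each area gave 210 values, of which 150 kept direction and side of the threshold, 36 kept the direction but lost the call, 12 changed in size and 12 in sign; of 109 other alternatives 81 kept both, 12 lost the call, 8 changed in size and 8 in sign. With 5 areas the exact sign-flip p cannot go below 0.0625, which ends those calls by construction. Elsewhere the cause was not tested.

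The genotype difference of S100a8 on the log2 scale was -0.0009024 with library size alone and 0.0028 to 0.19 leaving out each area, and that of S100a9 was -0.06267 with library size alone, -0.02358 without strongly positive cells (added after seeing the data) and -0.02733 to 0.141 leaving out each area. No paired analysis was possible because the labels give the genotypes no shared replicate numbers. Areas do share rows of the slide, and with the slide row as a block the differences were 0.12 and 0.05, and 17 targets were called by genotype against 2, with neither gene among them. DESeq2 called 10 targets, limma-voom on fields with the area as a random block 11, library size alone 1 and leaving out each area 1 to 3. With the row as a block, chosen after seeing the data, none of the genotype comparisons of strongly positive cells, co-detection or ducts passed, where 3 rows cannot give an exact p under 0.25. Leaving out each area gave -0.07905 to 0.2728 for the genotype difference in the co-detection log2 odds ratio, -0.002772 to 0.1766 for the log2 ratio of the genes, -0.9761 to 1.201 percentage points for S100a9 outside cells and -3.095 to 2.112 for S100a9 over nuclei.

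Strongly positive cells were farther from ducts by -20.53 pixels with at least 50 counts per cell, 42.32 and 190.1 at thresholds of 5 and 20 counts, 86.13 by share of the cell and 2859 with ducts by marker counts, and by 36.52 to 70.82 leaving out each area. With ducts by marker counts the median was 15930 against 1397 pixels in Control area 1. It was below that of other cells in HIRA KO area 1 (681.6 against 709.3) and area 2 (719.6 against 847.6). The genotype difference of that distance was 13.47 with at least 50 counts per cell, 44.6 at a threshold of 20 and 147.8 by share of the cell. It was -5774 with ducts by marker counts and -59.58 to 26.24 leaving out each area. The neighbours' excess was 323.9 and 1463 CPM at thresholds of 5 and 20 (added after seeing the data) and 982.2 to 1385 leaving out each area. Log2 stain differences ranged over 2.535 to 2.647 for CD45, 0.3469 to 0.4796 for DAPI, -0.06343 to 0.08212 for CD3 and -0.07604 to 0.2091 for nuclear area, which was -0.08559 with at least 50 counts per cell.

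Targets called in strongly positive cells numbered 1 with TMM, 15 with library size alone (11 higher, 4 lower), 7 with DESeq2 (1 higher, 6 lower), 7 (2 higher, 5 lower) and 2 (both lower) at thresholds of 5 and 20, 79 by share of the cell (1 higher, 78 lower) and 0 to 2 leaving out each area. Added after seeing the data, they numbered 16 at a threshold of 5 with library size, 2 without the cell richest in Mpo, Elane and Ctsg, 11 without it with library size, and 6, 10, 9, 15, 6 and 9 with library size leaving out Control 1 to 3 and HIRA KO 1 to 3, so that the lowest and highest counts leaving out an area were 0 and 15. The sums of 159 to 2946 counts per area limit this comparison.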
